A study of Mus musculus with 8 samples.

Results

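The 7 genes *Tnfaip1*, *Tnfaip2*, *Tnfaip3*, *Tnfaip6*, *Tnfaip8*, *Tnfaip8l1* and *Tnfaip8l2*, which bear the name of tumour necrosis factor (TNF) alpha-induced proteins, were followed in brown adipose tissue (BAT) of single mice. They were found by symbol among the 44674 genes of the table, and all 7 passed the filter on low counts, which left 14489 tested genes. *Tnfaip2* and *Tnfaip6* had been singled out because they were higher in the Ox1RΔSERT mice of these same data. Their difference between the groups is therefore given as a description without a test, whereas the other 5 members were tested.

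BAT came from 4 control mice and 4 Ox1RΔSERT mice, all male and on a HFD from 4 to 18 wk of age, and was taken between 14 and 16 h at the end of a hyperinsulinemic-euglycemic clamp, in which insulin is infused and glucose is given to hold blood glucose steady. Ox1RΔSERT mice were Ox1R fl/fl, Sert-Cre tg/wt, a cross in which Cre, driven by the gene of the serotonin transporter, deletes the orexin receptor Ox1R. Controls were Ox1R fl/fl, Sert-Cre wt/wt mice of the same breeding, so both groups carried the floxed alleles. Sert-Cre also acts in parts of the cingulate cortex and thalamus, and the deletion was not aimed at BAT. *Hcrtr1*, the gene of Ox1R, had 0 to 5 counts in BAT of a mouse and could not be used to check the genotype there. *Ucp1*, the uncoupling protein that defines brown adipocytes, reached normalized values of 2513 to 4895 in all 8 mice. Normalized values are CPM, counts relative to the library total, after scaling by the trimmed mean of M-values (TMM). Total counts were 35852667 to 50063257 per mouse, and a gene with 3 counts, which a count of 0 still allows, had a normalized value of 0.0592 to 0.0951. This floor covers counting error only.

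TNF binds receptors at the cell surface and activates the transcription factor NF-kB and AP-1 proteins, which switch on inflammatory genes and, with them, proteins that end the response. The Tnfaip genes took their name from transcripts found in cells treated with TNF, or from likeness to such a gene in the case of *Tnfaip8l1* and *Tnfaip8l2*, and most of them code for unrelated proteins. Tnfaip3, also called A20, edits ubiquitin chains and is a brake on NF-kB. Tnfaip6, also called TSG-6, is secreted, binds hyaluronan and transfers protein heavy chains to it. Tnfaip2, also called M-Sec, resembles an exocyst subunit and takes part in membrane protrusions. Tnfaip1 is an adaptor of the cullin-3 ubiquitin ligase. Tnfaip8, Tnfaip8l1 and Tnfaip8l2 form a family of lipid-binding proteins, of which Tnfaip8l2 is best known from immune cells, where it restrains receptor signalling. In adipose tissue TNF comes largely from macrophages, whose number grows in obesity.

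The sequences in front of these genes are shown first, because NF-kB and AP-1 are known to read TNF signals through short sequence motifs, of which 3 of the members hold at least 1. Promoter windows from 250 bases before to 50 bases after the RefSeq start (GRCm38.p6) were found for 6 of the 7 members, all but *Tnfaip8*, and both strands were searched for GGNNTTTCC (NF-kB-like), TGANTCA (AP-1) and TTGNGNAA (C/EBP-like). These motifs were chosen with the windows in view. Of all 32851 windows of this length, 5.82% held the NF-kB-like letters, 7.81% the AP-1 letters and 13.3% the C/EBP-like letters. A window of *Tnfaip2*, of *Tnfaip3* and of *Tnfaip6* held at least 1 of the motifs, and those of *Tnfaip1*, *Tnfaip8l1* and *Tnfaip8l2* held none. *Tnfaip3* was also searched in a second window, at another start (chr10:19011914-19012213), which held none. Windows of 30 bases around each match are given 5′ to 3′ on the strand of the gene, with the matching letters in capitals.
*Tnfaip3* NF-kB-like, chr10:19015415-19015444, minus strand, 24 bases before the start: tcacgtgactGGAATTTCCatcggaaatcc
*Tnfaip3* NF-kB-like, read on the other strand, chr10:19015403-19015432, minus strand, 12 bases before the start: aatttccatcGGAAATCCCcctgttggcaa
*Tnfaip3* AP-1, chr10:19015528-19015557, minus strand, 136 bases before the start: aaatgcccaggTGACTCAcgcggggacacc
*Tnfaip2* NF-kB-like, chr12:111442564-111442593, plus strand, 87 bases before the start: gtccgccagcGGATTTTCCgcggttgcggt
*Tnfaip6* AP-1, chr2:52037960-52037989, plus strand, 142 bases before the start: gccaatgcaaaTGAGTCAgagggcttgctt
*Tnfaip6* C/EBP-like, chr2:52037994-52038023, plus strand, 108 bases before the start: cactgaactaaTTGTGTAActccgcaacgg

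The *Tnfaip2* match lay inside an exon of the GENCODE annotation, whose start is further upstream than that of RefSeq. The GENCODE start of *Tnfaip3*, at chr10:19015657 on the minus strand, is also further upstream. The *Tnfaip3* matches thus lay inside the annotated gene, though in no GENCODE exon. For *Tnfaip6*, the gene with the highest ratio between the groups, the GENCODE start is 104 bases before that of RefSeq. The 146 bases before it are printed whole, with the AP-1 letters in capitals, because they hold the match in its setting.
*Tnfaip6*, chr2:52037863-52038008, plus strand: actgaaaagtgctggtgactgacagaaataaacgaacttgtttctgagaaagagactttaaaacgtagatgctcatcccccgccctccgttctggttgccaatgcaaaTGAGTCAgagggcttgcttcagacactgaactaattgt
A match of letters is a description of the window, and binding of a factor was not measured.

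Of the 7 Tnfaip genes, *Tnfaip2*, *Tnfaip6* and *Tnfaip8l1* were higher in each of the 4 Ox1RΔSERT mice than in each control mouse. *Tnfaip3* and *Tnfaip8l2* were higher on average, by 0.92 and 1.73 on the log2 scale, but overlapped between the groups. *Tnfaip1* and *Tnfaip8* lay at nearly the same mean in both groups. In whole tissue, more cells of a type and more RNA in each cell cannot be told apart. The quasi-likelihood test of edgeR called none of the 7 at an adjusted p under 0.05, and it called 0 of the 14489 tested genes (0%).

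Without adjustment, 5 of the 7 members passed p under 0.05, each of them higher in Ox1RΔSERT mice, against 10.2% of all tested genes in that direction and 4.96% in the other. As *Tnfaip2* and *Tnfaip6* were picked by this contrast, nothing is read from their part in this count. Of the other 5 members, 3 passed. Non-overlapping groups, higher in Ox1RΔSERT mice, were found in 3 of the 7 members and in 2.69% of all tested genes, against 2.81% in the other direction and 5.5% in either. Of these 3, *Tnfaip2* and *Tnfaip6* belong to the choice, and of the other 5 members 1 did not overlap, *Tnfaip8l1*. DESeq2 called 265 of 15119 genes, 233 of them higher (1.54%), and of the 5 members that were not singled out it called 0, the lowest adjusted p being 0.0731 for *Tnfaip8l2*. Across all genes, edgeR's unadjusted p was under 0.05 for 2201 genes, and its lowest adjusted p was 0.316. Each library is a separate mouse by its label, and 4 against 4 mice can give no exact permutation p below 0.0286.

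**Figure D1:**
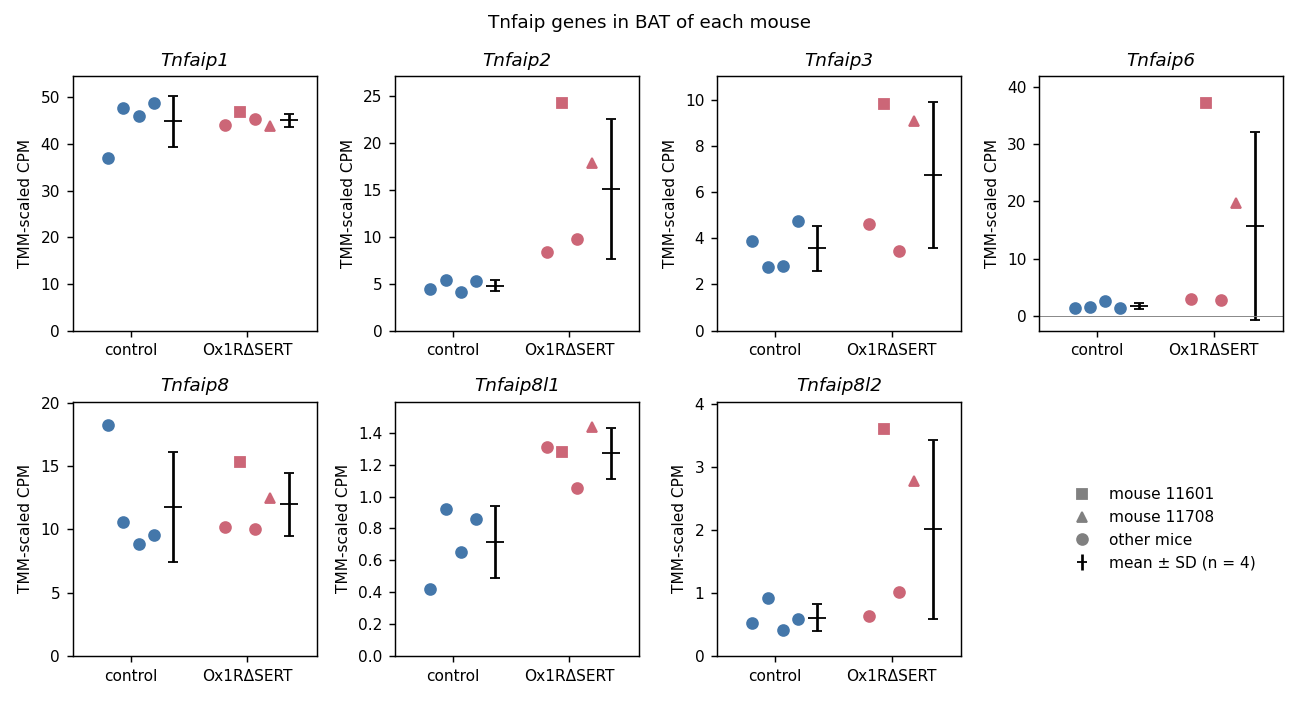
Normalized values (TMM-scaled CPM) of the 7 Tnfaip genes in BAT, 1 panel a gene and 1 point a mouse, with the mean ± SD of 4 mice beside each group and the Ox1RΔSERT mice 11601 and 11708 drawn as a square and a triangle. *Tnfaip2*, *Tnfaip6* and *Tnfaip8l1* do not overlap between the groups. Mice 11601 and 11708 are the 2 highest in 4 of the panels, *Tnfaip3*, *Tnfaip8l2* and the singled-out *Tnfaip2* and *Tnfaip6*.

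Values of single mice are given below as normalized values, in the order of mice 10684, 11253, 11560 and 11563 for controls and mice 11243, 11601, 11613 and 11708 for Ox1RΔSERT. *Tnfaip6* (ENSMUSG00000053475, chr2:52038009-52056686, plus strand), the hyaluronan-binding TSG-6, was at 1.52, 1.68, 2.66 and 1.39 in control mice and at 3.10, 37.1, 2.92 and 19.7 in Ox1RΔSERT mice. Mice 11601 and 11708 stood far above the rest, whereas 11243 and 11613 lay just above the highest control mouse, 11560. The means were 1.81 ± 0.581 in control and 15.7 ± 16.3 in Ox1RΔSERT mice (SD, n = 4), a ratio of 8.67, and the fitted log2 fold change was 3.11 with a SE of 0.82. Among the log2 fold changes of all tested genes it stood at the percentile 99.6. The estimated counts behind these values were 53 to 1883. Without mice 11601 and 11708 the log2 fold change was 0.73 (SE 0.29), and without 11601 alone it was 2.24.

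*Tnfaip2* (ENSMUSG00000021281, chr12:111442469-111455018, plus strand), the exocyst-like M-Sec, was at 4.39, 5.36, 4.13 and 5.23 in control mice and at 8.38, 24.3, 9.72 and 17.8 in Ox1RΔSERT mice. The 4 control values lay close together, with a coefficient of variation of 12.7%, and every Ox1RΔSERT mouse was well above them, again with 11601 and 11708 on top. The means were 4.78 ± 0.608 and 15.0 ± 7.43, a ratio of 3.15, and the log2 fold change was 1.66 with a SE of 0.33, at the percentile 97.4 of all tested genes. It was 0.93 (SE 0.16) when mice 11601 and 11708 were left out. Its exons share 314 bases, 6.30% of their length, with the antisense gene *Gm40578*, and the sources used here do not say whether quantification used the strand.

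Of the lipid-binding family, *Tnfaip8l2* (ENSMUSG00000013707, chr3:95139521-95142360, minus strand), the member known from immune cells, was at 0.523, 0.919, 0.406 and 0.589 in control mice and at 0.633, 3.61, 1.01 and 2.78 in Ox1RΔSERT mice. Mice 11601 and 11708 were again the highest, and 3 of the 4 Ox1RΔSERT mice were above all control mice. The log2 fold change was 1.73 with a SE of 0.56 and did not pass in edgeR (unadjusted p = 0.0130, adjusted p = 0.316) or in the exact two-sided permutation test over the 70 assignments of 4 mice against 4 (p = 0.0571). The gene was weakly expressed, with 18 to 183 counts, and without mice 11601 and 11708 its log2 fold change was 0.45 (SE 0.39).

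*Tnfaip8l1* (ENSMUSG00000044469, chr17:56162477-56173955, plus strand), its close relative, had the fewest counts of the 7, from 16 to 70. It was at 0.418, 0.919, 0.655 and 0.862 in control mice and at 1.31, 1.28, 1.06 and 1.44 in Ox1RΔSERT mice. Here the 4 Ox1RΔSERT mice lay close together, with 11243 and 11708 the highest, and none of them overlapped the control mice. The log2 fold change was 0.83 with a SE of 0.27, and edgeR gave an unadjusted p of 0.0144 and an adjusted p of 0.316, whereas the exact permutation test gave p = 0.0286, the smallest it can give. Without mice 11601 and 11708 the log2 fold change was 0.73 (SE 0.35), against 0.18 (SE 0.28) for *Tnfaip3*. It shares 113 exon bases with the miRNA gene *Gm44397* on the other strand.

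*Tnfaip8* (ENSMUSG00000062210, chromosome 18, plus strand), the founder of that family, was at 18.2, 10.6, 8.85 and 9.52 in control mice and at 10.2, 15.3, 9.99 and 12.5 in Ox1RΔSERT mice. The single highest value belonged to the control mouse 10684. The means were 11.8 ± 4.35 and 12.0 ± 2.48, and the log2 fold change was 0.02 with a SE of 0.25 (edgeR, adjusted p = 0.971; exact permutation p = 0.886). Its exons share 1312 bases, 12.7% of their length, with *C030005K06Rik* on the other strand.

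*Tnfaip3* (ENSMUSG00000019850, chr10:19000910-19015657, minus strand), the NF-kB brake A20, was at 3.90, 2.76, 2.82 and 4.77 in control mice and at 4.61, 9.82, 3.46 and 9.11 in Ox1RΔSERT mice. Only mice 11601 and 11708 exceeded the highest control mouse, 11563. The log2 fold change was 0.92 with a SE of 0.36, with p = 0.0307 and an adjusted p of 0.316 in edgeR, and the exact permutation p was 0.143. *Tnfaip1* (ENSMUSG00000017615, chr11:78522850-78536332, minus strand), the cullin-3 adaptor, was at 36.9, 47.7, 45.9 and 48.7 in control mice and at 44.0, 46.9, 45.4 and 43.8 in Ox1RΔSERT mice. The values of Ox1RΔSERT mice lay within the wider range of the control mice, with a log2 fold change of 0.01 and a SE of 0.10 (edgeR, adjusted p = 0.979; exact permutation p = 1).

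The spread among the mice of a group differed from member to member. In control mice the coefficient of variation ran from 12.0% for *Tnfaip1* to 36.8% for *Tnfaip8*. In Ox1RΔSERT mice it was 3.17% for *Tnfaip1*, 12.6% for *Tnfaip8l1* and 20.7% for *Tnfaip8*, but 47.2% for *Tnfaip3*, 49.3% for *Tnfaip2*, 70.7% for *Tnfaip8l2* and 104% for *Tnfaip6*. The members with the widest spread were those in which mice 11601 and 11708 were the 2 highest of the 8. This held for 4 of the 7 members, of which *Tnfaip2* and *Tnfaip6* belong to the choice. Of the other 5 members it held for *Tnfaip3* and *Tnfaip8l2* only, and it held for 20.1% of all tested genes. Of the 5 members that were not singled out, 3 had an unadjusted p under 0.05 in edgeR with all mice. The count was 2 without mouse 11601 (5.07%) or 11708 (4.93%). It was also 2 without control mouse 10684 (9.15%), 11253 (9.5%) or 11560 (4.84%). It stayed at 3 without control mouse 11563 (6.37%), without 11243 (13.9%) or without 11613 (13.1%). Without both of 11601 and 11708 it was 0 (1.66%). Percentages are the shares of all tested genes in each fit with such a p and higher in Ox1RΔSERT mice.

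Within a mouse, *Tnfaip2* and *Tnfaip6* were set against the median of the other 5 members, each gene being taken relative to its own mean in control mice on the log2 scale. In control mice *Tnfaip2* differed from this median by 0.07, 0.07, 0.12 and 0.01. In mice 11243, 11601, 11613 and 11708 it stood 0.75, 1.56, 0.99 and 0.96 above it. *Tnfaip2* had been chosen for being higher in the 4 Ox1RΔSERT mice, so nothing is read from their standing apart from the control mice here. In mice 11243 and 11613 *Tnfaip2* was the highest of the 7 members on this scale.

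*Tnfaip6* differed from the same median by -0.05, -0.19, 0.86 and -0.48 in control mice and by 0.70, 3.52, 0.64 and 2.45 in Ox1RΔSERT mice. For *Tnfaip6* the groups overlapped on this scale, because control mouse 11560, at 0.86, lay above mice 11243 and 11613. The median of the other 5 members itself was -0.19, 0.09, -0.33 and 0.12 in control mice and 0.05, 0.76, 0.02 and 0.92 in Ox1RΔSERT mice. *Tnfaip6* was the highest of the 7 members in control mouse 11560 and in mice 11601 and 11708.

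**Figure D2:**
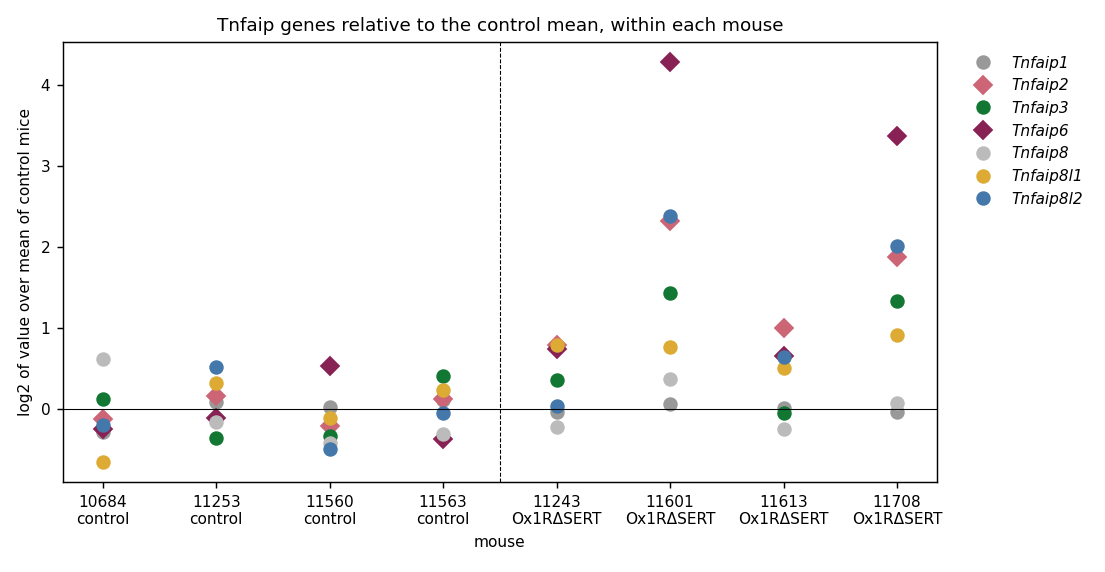
Each of the 7 Tnfaip genes as the log2 of its normalized value over its mean in control mice (y axis), for every mouse (x axis), with *Tnfaip2* and *Tnfaip6* drawn as diamonds and the other 5 members as circles. In control mice the members scatter on both sides of 0, between -0.65 and 0.62, and in mice 11601 and 11708 *Tnfaip6* is the highest and *Tnfaip1* the lowest.

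Levels were compared between genes in TPM, a unit of transcript abundance that corrects for transcript length. In control mice *Tnfaip1* was the most abundant member at 8.66 ± 0.977 TPM, followed by *Tnfaip8* at 6.46 ± 2.75, *Tnfaip6* at 1.13 ± 0.356, *Tnfaip2* at 1.10 ± 0.216, *Tnfaip3* at 0.709 ± 0.249, *Tnfaip8l2* at 0.450 ± 0.139 and *Tnfaip8l1* at 0.229 ± 0.0683 (SD, n = 4). Of the neighbours in this order, *Tnfaip1* and *Tnfaip8*, and *Tnfaip6* and *Tnfaip2*, differed by less than the larger of their SDs. Against all tested genes the level of *Tnfaip1* was at the percentile 71.7 and that of *Tnfaip8l1* at 10.8.

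In Ox1RΔSERT mice the mean of *Tnfaip6* headed the order at 13.7 ± 15.0 TPM, then *Tnfaip1* at 11.1 ± 2.02, *Tnfaip8* at 8.44 ± 2.79, *Tnfaip2* at 4.67 ± 2.92, *Tnfaip8l2* at 2.04 ± 1.64, *Tnfaip3* at 1.70 ± 1.05 and *Tnfaip8l1* at 0.523 ± 0.125. The first place of *Tnfaip6* came from 2 mice. Its level was 1.00, 0.958, 1.66 and 0.908 TPM in control mice and 1.88, 33.6, 2.41 and 17.0 TPM in Ox1RΔSERT mice, and its gap to *Tnfaip1* was within the SD. As a share of the summed TPM of the 7 genes, *Tnfaip6* took 4.68% to 9.67% in control mice, 9.78% and 9.50% in mice 11243 and 11613, and 45.4% and 33.8% in mice 11601 and 11708. The share of *Tnfaip2* was 4.57% to 7.20% in control mice and 9.76% to 11.5% in Ox1RΔSERT mice. On the TPM scale the median log2 difference over all tested genes was 0.23 with a pseudocount of 1 and 0.32 with 0.1, against 0.00 for normalized values, and differences between the groups are therefore given on the normalized scale.

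**Figure D3:**
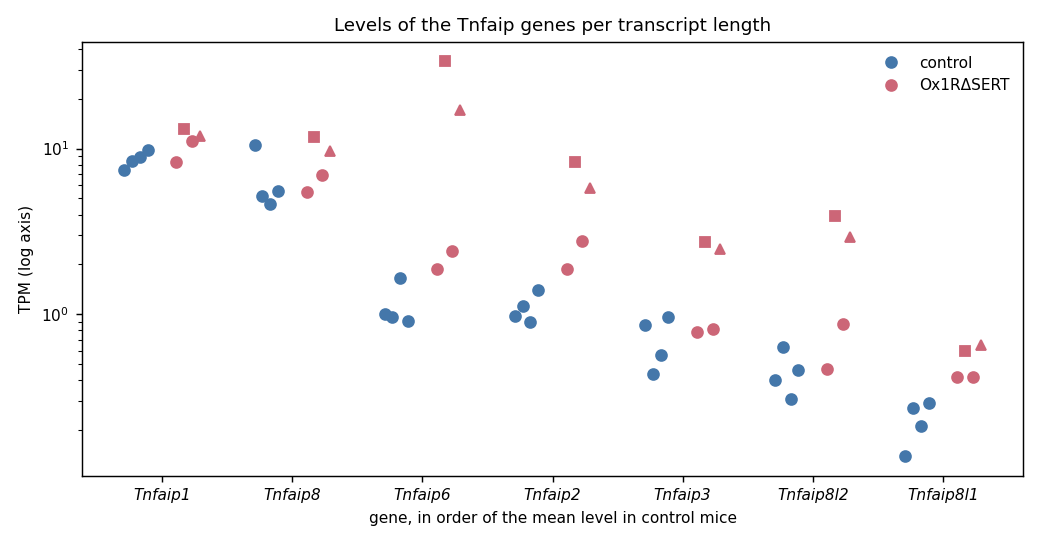
Level of each Tnfaip gene in TPM (log axis) in each mouse, genes in the order of their mean in control mice, with mice 11601 and 11708 drawn as a square and a triangle. *Tnfaip1* and *Tnfaip8* lead in control mice, and *Tnfaip6* spans 1.88 to 33.6 TPM among Ox1RΔSERT mice.

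The summed macrophage and fibroblast markers, like *Tnfaip2*, *Tnfaip3*, *Tnfaip6* and *Tnfaip8l2*, were highest in mice 11601 and 11708. The 9 macrophage markers summed to normalized values of 121 to 263 in control mice and 194 to 916 in Ox1RΔSERT mice, with 11601 at 916 and 11708 at 728. Of the 9, 8 were higher with an unadjusted p under 0.05 in edgeR, beside 10.2% of all tested genes. The 7 fibroblast and progenitor markers summed to 157 to 330 in control and 247 to 1547 in Ox1RΔSERT mice, and 6 of the 7 had such a p. With 1 mouse left out, the macrophage count was 5 without control mouse 10684 or without 11708 and 4 without control mouse 11560 or without 11601. It was 6 without control mouse 11563. The fibroblast count was 4 without control mouse 10684, 11560 or 11563 and 3 without 11601. The share of all tested genes that were higher with such a p was 9.15% without 10684, 4.84% without 11560 and 6.37% without 11563. This share was 5.07% without 11601 and 4.93% without 11708. Without both of 11601 and 11708 the counts were 0 and 1, beside 1.66% of all tested genes. The median log2 fold change was 1.65 for the macrophage and 1.29 for the fibroblast list, and 0.24 and 0.38 when mice 11601 and 11708 were left out.

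Mice 11243 and 11613 had macrophage sums of 194 and 212, inside the range of control mice, of which *Lyz2* alone made 89.2 and 84.0. *Fcgr1* of this list, at 2.12 and 2.69, was above all control mice (at most 2.04), as were *Cd14* and *Mrc1* in 11613. The other macrophage markers did not exceed all control mice. Fibroblast sums of 11243 and 11613 were 247 and 346, the second of them above the highest control sum of 330. *Pi16* of that list, at 19.4 and 24.9, was above all control mice in both, as were *Col1a1* and *Dpp4* in 11613. In the same mice *Tnfaip2* was at 8.38 and 9.72, above the highest control value of 5.36 in mouse 11253, whose macrophage sum was 263. *Tnfaip8l1* was also above all control mice in 11243 and 11613, whereas *Tnfaip8l2* was at 0.633 and 1.01, below and above control mouse 11253 at 0.919. *Tnfaip6*, at 3.10 and 2.92, was above the highest control value of 2.66 by less than the SD of the control mice. *Tnfaip2* and *Tnfaip6* had been chosen for being higher in Ox1RΔSERT mice, so nothing is read from their place above the control mice here. The part of macrophages and fibroblasts in the values of these genes was not tested.

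Neutrophil markers summed to 6.79 to 29.7 in control and 15.8 to 54.1 in Ox1RΔSERT mice, and lymphocyte markers to 0.723 to 1.11 and 1.11 to 1.58. Endothelial markers were at 283 to 386 and 263 to 356, and mesothelial markers were under 1 in every mouse. The 8 brown adipocyte markers summed to 6974 to 9007 in control and 4712 to 7088 in Ox1RΔSERT mice. Skeletal muscle markers ranged from 2.31 to 1993 and were high in control mouse 11253 and Ox1RΔSERT mouse 11708, and their part in the values of the Tnfaip genes was not tested.

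**Figure D4:**
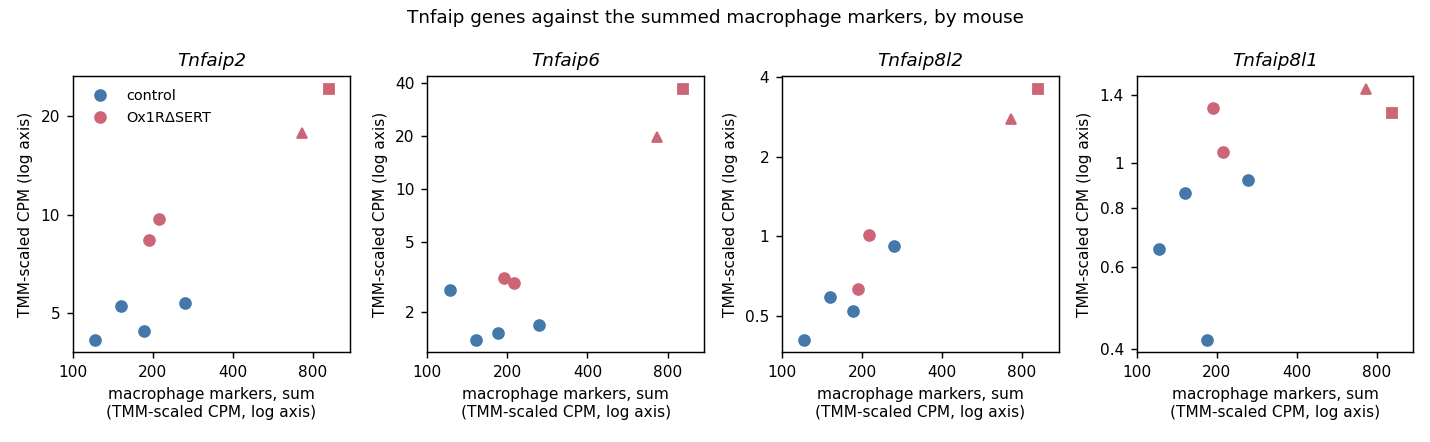
Normalized values of *Tnfaip2*, *Tnfaip6*, *Tnfaip8l2* and *Tnfaip8l1* (y axes, log) against the summed normalized values of 9 macrophage markers (x axes, log), 1 point a mouse, with 11601 as a square and 11708 as a triangle. At macrophage sums near 200, *Tnfaip2* and *Tnfaip8l1* of mice 11243 and 11613 lie above the control mice, and *Tnfaip8l2* lies at 0.633 and 1.01 beside a highest control value of 0.919. *Tnfaip2* and *Tnfaip6* were chosen for being higher in Ox1RΔSERT mice, so nothing is read from their place above the control mice. Of the markers in the sum, *Fcgr1* was above all control mice in both 11243 and 11613.

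Genes that most resembled a member over the 8 mice were found by the root mean square difference of centred log2 values, among 12268 genes. For *Tnfaip2* these were *Fgl2* at 0.177, *Lacc1* at 0.187, *Loxl3* at 0.198, *Clec4n* at 0.212 and *Tmem173* at 0.215. For *Tnfaip6* they were *Cd276* at 0.431, *Cd109* at 0.450, *Cd44* at 0.455, *Ccn3* at 0.482 and *Timp1* at 0.487, all of them less close than the neighbours of *Tnfaip2*. *Tnfaip8l2* had the closest ones, *Steap2* at 0.0726, *Laptm5* at 0.111, *Syk* at 0.120, *Tbxas1* at 0.121 and *Il10ra* at 0.128. *Cd44* codes for the main cell-surface receptor of hyaluronan, the polymer that Tnfaip6 binds, and *Timp1* for an inhibitor of matrix proteases. *Laptm5*, *Syk* and *Il10ra* are known from cells of blood origin. No cell source is given here for *Steap2*, the closest gene to *Tnfaip8l2*, or for *Tbxas1*, and the source was not tested. *Tnfaip8l1* was not compared, as its mean normalized value was under the limit of 1 for this search. Among the other members, *Tnfaip2* was nearest to *Tnfaip8l2*, at 0.320, where *Tnfaip8l2* ranked 67 among all genes compared. *Tnfaip2* was at 0.868 from *Tnfaip6*, which ranked 4663. Counted from *Tnfaip6*, whose own range is wider, *Tnfaip2* ranked 278 at the same distance. The measure takes in the size of the differences, and the level *Tnfaip1* was at 0.867 from *Tnfaip2*. All genes share the same 8 libraries, and the likeness is a description.

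Of the other genes named as TNF-induced, *Ptx3*, a secreted pattern recognition protein also known as TNFAIP5 that joins Tnfaip6 in hyaluronan matrix, was at 10.9, 2.28, 4.63 and 8.51 in control mice and at 25.3, 42.3, 14.1 and 55.0 in Ox1RΔSERT mice. The groups did not overlap, the log2 fold change was 2.37 with a SE of 0.54, and the adjusted p was 0.316 in edgeR and 0.00166 in DESeq2. *Steap4*, a metal reductase also known as TNFAIP9, and *Efna1*, an ephrin also known as TNFAIP4, did not pass with all mice. Their log2 fold changes were 0.30 (SE 0.47) and 0.12 (SE 0.25). *Steap4* was at 325, 90.0, 94.3 and 71.0 in control mice and at 141, 247, 167 and 161 in Ox1RΔSERT mice. The highest value was that of control mouse 10684, and the other control mice lay below all Ox1RΔSERT mice. Without 10684, 2 of the 3 genes above were higher with an unadjusted p under 0.05 in edgeR, beside 9.15% of all tested genes. The count was 1 with all mice and with any other 1 mouse left out. *Tnfaip8l3* had 0 to 7 counts and was not tested.

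*Tnf* itself, the ligand, was barely detected, with 1 to 22 counts, and failed the filter. Its normalized values were 0.209, 0.0317, 0.0452 and 0.210 in control mice and 0.109, 0.434, 0.180 and 0.391 in Ox1RΔSERT mice, so that 11601 and 11708 held the highest values but the groups overlapped. The receptor *Tnfrsf1a*, present on most cells, was level, with a log2 fold change of -0.04 and a SE of 0.12. The second receptor, *Tnfrsf1b*, which immune cells carry, was at 7.64, 7.86, 4.49 and 5.76 in control mice and at 6.77, 23.2, 6.65 and 22.1 in Ox1RΔSERT mice. Mice 11601 and 11708 alone were above control mice, and its log2 fold change was 1.19 (SE 0.45; edgeR, unadjusted p = 0.0272, adjusted p = 0.316). Of the 17 tested genes of TNF and its receptor complex, 3 passed an unadjusted p under 0.05, all higher, the others being the ubiquitin ligase *Birc3* at 0.66 (SE 0.21) and the kinase *Ikbkb* at 0.32 (SE 0.13). This compares with 10.2% of all tested genes in that direction. Without control mouse 11560 or without 11708, 1 of the 17 passed, beside 4.84% and 4.93% of all tested genes. Without both of 11601 and 11708, 0 passed, beside 1.66%.

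Among the 11 NF-kB subunits and inhibitors, 5 passed an unadjusted p under 0.05, all higher in Ox1RΔSERT mice, beside 10.2% of all tested genes. After adjustment 0 passed, as for all tested genes. The count was 3 without control mouse 11253 (9.5% of all tested genes), without 11560 (4.84%) or without 11613 (13.1%). It was 6 without control mouse 11563 (6.37%) or without 11243 (13.9%). It was 2 without 11601 (5.07%) or without 11708 (4.93%) and 1 without both of the latter (1.66%). *Nfkb2*, the subunit of the alternative pathway, did not overlap, with 8.997, 7.13, 7.77 and 8.85 in control mice and 10.4, 16.1, 10.6 and 14.6 in Ox1RΔSERT mice. Its log2 fold change was 0.66 with a SE of 0.17, and DESeq2 called it with an adjusted p of 0.0406. *Nfkbie*, an inhibitor, was at 1.23 (SE 0.40), *Rel* at 0.45 (SE 0.18) and *Nfkb1* at 0.38 (SE 0.15). *Rela* and the inhibitor *Nfkbia*, a prompt NF-kB target like *Tnfaip3*, were at 0.18 (SE 0.12) and 0.22 (SE 0.13) and did not pass. The median log2 fold change of the list was 0.44, and 0.18 without mice 11601 and 11708.

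The 15 tested NF-kB target genes had a median log2 fold change of 0.84, beside 0.92 for the 7 Tnfaip genes, 0.83 for the 5 that were not singled out and 0.00 for all tested genes. An unadjusted p under 0.05 was found for 4 of them, all higher, beside 10.2% of all tested genes. These were the cytokine *Il1b* at 2.79 (SE 0.69), the neutrophil attractants *Cxcl1* at 2.60 (SE 0.71) and *Cxcl2* at 2.66 (SE 0.87), and the adhesion molecule *Icam1* at 0.60 (SE 0.19). The count of higher genes was 9 without control mouse 10684 (9.15% of all tested genes), 7 without 11243 (13.9%) and 8 without 11613 (13.1%). It was 4 without 11601 (5.07%), 3 without 11708 (4.93%) and 1 without both of 11601 and 11708 (1.66%). Without these 2 mice the median of the list was 0.18, that of the 5 Tnfaip genes not singled out 0.18 and that of all 7 members 0.45.

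A20, the product of *Tnfaip3*, works with partners that bring it to ubiquitin chains. Of 11 such partners and related brakes, *Tnip2* was higher at a log2 fold change of 0.72 (SE 0.21) and *Tnip3* at 1.84 (SE 0.79), each with an unadjusted p under 0.05, *Tnip3* with 3 to 75 counts. *Tnip1* was level at 0.01 (SE 0.20), and the adaptors *Tax1bp1* and *Rnf11* were both at -0.21 (SE 0.09), *Tax1bp1* with an unadjusted p of 0.0438 in edgeR. The list had a median of 0.00, and 0 of the 11 passed the adjusted threshold, as for all tested genes. At an unadjusted p under 0.05 in edgeR, 2 of the 11 were higher and 1 lower, beside 10.2% and 4.96% of all tested genes. The higher count was 1 without control mouse 11253 (9.5% of all tested genes) or 11560 (4.84%) and without 11601 (5.07%) or 11708 (4.93%). It was 0 without both of 11601 and 11708 (1.66%).

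Tnfaip6 works on the hyaluronan matrix around cells. Of 16 tested genes of hyaluronan matrix and TSG-6 partners, 9 had an unadjusted p under 0.05, all of them higher, beside 10.2% of all tested genes, and the median log2 fold change was 0.71. The count was 5 without control mouse 11560 (4.84% of all tested genes), without 11601 (5.07%) or without 11708 (4.93%). It was 4 without control mouse 11563 (6.37%) and 1 of 17 without both of 11601 and 11708 (1.66%). *Has1*, a hyaluronan synthase, was at 1.44, 0.349, 2.05 and 1.41 in control mice and at 1.75, 17.9, 3.43 and 9.34 in Ox1RΔSERT mice. The hyaluronan receptor *Cd44* was at 14.1, 12.8, 11.7 and 12.0 in control mice and at 12.9, 137, 14.5 and 97.3 in Ox1RΔSERT mice. As for *Tnfaip6*, mice 11601 and 11708 were several times above all others, whereas 11243 and 11613 were far closer to the control mice.

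Log2 fold changes in this list were 2.61 (SE 0.76) for *Has1*, 2.18 (SE 0.81) for *Has2*, 2.37 (SE 0.73) for *Cd44*, 1.68 (SE 0.58) for the proteoglycan *Vcan* and 2.04 (SE 0.53) for *Thbs1*, a matrix protein that Tnfaip6 binds. The 3 negative ones were *Has3* at -0.74 (SE 0.34), *Itih4* at -0.56 (SE 0.60) and *Hyal1* at -0.25 (SE 0.26). Only *Thbs1* did not overlap between the groups. *Itih3* and *Ambp*, named here after their values were seen, code for parts of the inter-alpha-inhibitor that supplies the heavy chains and were high in 1 mouse, 11708, at 16.4 and 17.4, with at most 0.967 and 1.38 elsewhere. Both are among the 9 genes counted above. The median of the list was 0.09 without mice 11601 and 11708.

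The protein neighbours of Tnfaip2 and Tnfaip1 were near the median of all genes. Of 14 exocyst and RAL genes 0 had an unadjusted p under 0.05 in edgeR, beside 15.2% of all tested genes in either direction. The median log2 fold change of these 14 was -0.02, with *Exoc3*, the subunit that Tnfaip2 resembles, at -0.08 (SE 0.09) and *Exoc1* at 0.20 (SE 0.13). Of 7 genes around cullin-3, 1 was higher and 1 lower at an unadjusted p under 0.05, beside 10.2% and 4.96% of all tested genes. These were the GTPase *Rhoc* at 0.37 (SE 0.14) and *Cul3* itself at -0.21 (SE 0.09). Without 11560, without 11601 or without 11708, 0 of the 7 had such a p. In these fits 4.84%, 5.07% and 4.93% of all tested genes had such a p and were higher. *Kctd10* and *Kctd13*, the adaptors closest to Tnfaip1, were at 0.17 (SE 0.11) and -0.15 (SE 0.17).

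**Figure D5:**
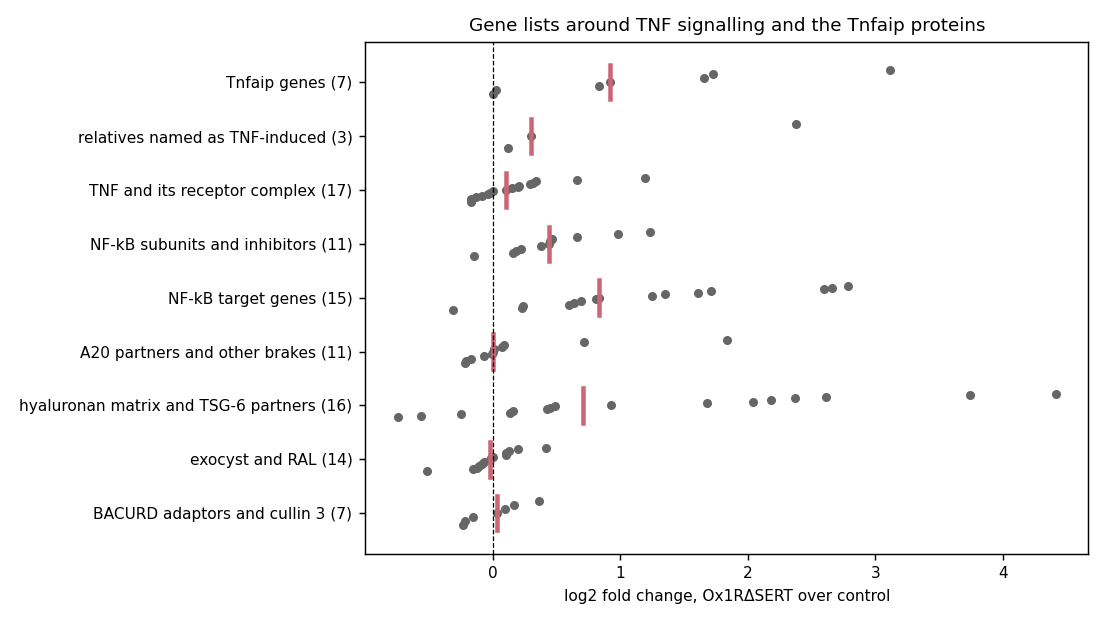
Log2 fold change (x axis, Ox1RΔSERT over control) of each tested gene of the Tnfaip genes and of 8 lists around them, 1 point a gene, spread vertically only for legibility, with the list median as a red bar, the median of all tested genes as a dashed line and the number of tested genes in brackets. The medians run from -0.02 for exocyst and RAL genes to 0.92 for the Tnfaip genes, 2 of which were chosen by this contrast.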

How the data were processed

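BAT RNA of 8 mice, 4 per genotype, was sequenced from stranded poly-A libraries. With the nf-core/rnaseq workflow and its Salmon step (version 0.14.1, GRCm38.p6; annotation release and strand setting not given in the sources used here), the authors deposited unnormalized estimated counts. They also deposited TPM, scaled by transcript length to an equal total per mouse. Symbols and positions came from GENCODE M21 for 44118 of 44674 identifiers.

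Estimated counts were rounded and fitted with edgeR 4.0.16 in R 4.3.3 (filterByExpr, TMM, glmQLFit, glmQLFTest, no covariates, two-sided), with Benjamini-Hochberg adjustment over 14489 genes and a threshold of 0.05. Standard errors were derived from the F statistic. Single-mouse log2 values relative to control mice used normalized CPM, as did those of the search for similar genes (mean normalized value of at least 1). Both used a pseudocount of 0.1. Permutation tests were exact. The code was tested on simulated data. Alternatives were DESeq2 1.42.0, RLE scaling, no filter, at least 10 counts in every mouse, limma 3.58.1 on log2(TPM + 1) and log2(TPM + 0.1), each mouse left out, and, added after seeing the data, mice 11601 and 11708 left out together.

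The members, gene lists and tests were chosen with earlier results of these data known. Named genes were the 7 members, up to 4 genes per list with the lowest p, preset pathway genes and the 5 nearest genes of *Tnfaip2*, *Tnfaip6* and *Tnfaip8l2*. *Itih3*, *Ambp*, *Has3*, *Itih4*, *Hyal1* and *Lyz2* were added after their values were seen. Depth is given with the results.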

Additional observations from a re-analysis of the deposited data

How the results depend on the processing

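edgeR and limma called 0 genes in each alternative, and DESeq2 called 265, with 2578 at an unadjusted p under 0.05. In edgeR with 1 mouse left out, 1018 to 3331 genes had an unadjusted p under 0.05, against 2201 with all mice, and the count was 1032 without 11708, 1108 without 11601, 1018 without control mouse 11560, 1348 without 11563 and 3331 without 11243. Over the 15 alternatives *Tnfaip2* kept a positive log2 fold change of 0.93 to 1.83, *Tnfaip6* of 0.73 to 3.46, *Tnfaip3* of 0.18 to 1.13, *Tnfaip8l1* of 0.31 to 0.95 and *Tnfaip8l2* of 0.45 to 1.99. The lowest values were those without mice 11601 and 11708, except for *Tnfaip8l1*, where it came from log2(TPM + 1). The 2 members near 0 changed sign. *Tnfaip1* was at -0.0013 in DESeq2, at -0.015 with no filter and between -0.078 and 0.036 with 1 mouse left out. *Tnfaip8* was at -0.0034 with no filter, at -0.22 without both mice and between -0.11 and 0.31 with 1 mouse left out. The highest values came from log2(TPM + 1) and log2(TPM + 0.1), at 0.32 and 0.35 for *Tnfaip1* and 0.35 and 0.40 for *Tnfaip8*. In these 2 settings the median of all tested genes was 0.23 and 0.32. The cause of the changes in sign was not tested. No paired analysis was possible because the labels number single mice and no mouse of one group shares a number with one of the other. The low counts of *Tnfaip8l1*, *Tnfaip8l2* and *Tnf* limit what could be resolved for them, and 4 mice per group limit every comparison.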
